A study of Rattus norvegicus with 6 samples.

Results

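The pancreatic miRNAs of rat plasma exosomes were represented by 4 of the 420 miRNAs of the deposited table, chosen by name as every entry of miR-216, miR-217 or miR-375. They were rno-miR-216a-5p, rno-miR-216b-5p and rno-miR-217-5p of the acinar cluster and rno-miR-375-3p of the islets and other epithelia. In plasma exosomes of rats given melatonin (EXO2), the acinar cluster was nearly unread, with 1 read in 3 libraries against 1623 reads in the 3 libraries of rats given the solvent alone (EXO1). The cluster reads of EXO1 were 29, 477 and 1117 in replicates 1, 2 and 3. miR-375-3p was read in all 6 libraries, at 2120 in EXO1 (250, 853 and 1017) against 1931 in EXO2 (1017, 807 and 107). Values of the cluster in these libraries were also listed as lower by the study, so their direction here is not independent evidence. None of the 4 passed an adjusted p of 0.05 in limma with a mean-variance trend, and miR-217-5p did so when the trend was left out. The cluster entered the test through its EXO1 reads, so its p values are descriptive.

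The rats were adult male Sprague Dawley of 200 to 250 g, and both groups were injected intraperitoneally for 7 days and bled on day 8. EXO1 rats received the carrier with 5% DMSO, and EXO2 rats received melatonin, the hormone of the pineal gland, at 10 mg/kg in the same carrier. The carrier is PBS in the labels and saline in the methods, and the exosomes were isolated by centrifugation per the labels and with a kit per the methods. Each group has 3 small RNA libraries, and no source states that each came from its own rat, so the spread between libraries may be technical.

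In the pancreas, acinar cells make digestive enzymes and islet cells make hormones. miR-216a, miR-216b and miR-217 lie together in the genome and are enriched in acinar cells, and their level in rat plasma is known to rise after acinar injury. miR-375 is abundant in the beta cells of the islets, where it restrains insulin secretion in mice, and is also made by other endocrine and epithelial cells. A known target of miR-217 is SIRT1, a deacetylase, in human endothelial cells. In blood, RNA outside cells travels in vesicles and in protein complexes, and its level depends on how much each tissue releases.

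The mature sequences are shown to place the bases at which the members differ. Whether any read was assigned to the wrong member was not tested. The 4 sequences come from RefSeq on the GRCr8 build, each 22 nucleotides long, with the seed (bases 2 to 8, which pair with targets) in capitals.
rno-miR-216a-5p: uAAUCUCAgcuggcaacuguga
rno-miR-216b-5p: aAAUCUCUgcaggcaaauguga
rno-miR-217-5p: uACUGCAUcaggaacugacugg
rno-miR-375-3p: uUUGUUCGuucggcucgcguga

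miR-216a-5p and miR-216b-5p had the same base at 18 of 22 positions. Counted from the 5′ end, with the miR-216a base given first, they differed by U1A, A8U, U11A and C17A. Their seeds therefore shared bases 2 to 7 and differed at base 8. miR-217-5p matched each of them at 6 of 22 positions and miR-375-3p matched none of the cluster at more than 10. No other mature rat miRNA of the RefSeq table, which covered 382 of the 420 IDs, had the seed of any of the 4.

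The hairpins of the cluster lie on the plus strand of chromosome 14 in the order miR-216b, miR-216a, miR-217, with 10949 and 7302 bases between neighbours and 18564 bases from the first to the last base. Mir216b spans chr14:106714026-106714127, Mir216a chr14:106725077-106725182 and Mir217 chr14:106732485-106732589. All 3 fall within the annotated lncRNA LOC102550402, Mir216a and Mir217 also within the lncRNA LOC102550342, and the neighbouring protein-coding genes are Ccdc85a and Efemp1. Mir375 lies elsewhere, on the minus strand at chr9:83906582-83906656, overlapping the annotated genes Cryba2 and LOC134480387. The precursors of miR-217 and miR-375 are shown to place the mature strand, in capitals, on the 5′ side of the first and on the 3′ side of the other. The values used here held no row for the opposite strands, so these could not be analysed.
Mir217: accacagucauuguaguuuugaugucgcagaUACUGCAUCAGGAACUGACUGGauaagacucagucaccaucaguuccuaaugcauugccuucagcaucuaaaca
Mir375: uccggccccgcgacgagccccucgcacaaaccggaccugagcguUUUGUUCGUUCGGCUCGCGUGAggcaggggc

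The miRNA reads of a library numbered 2279500 to 5868405 (EXO1) and 3033119 to 4999379 (EXO2), as recovered from the step of the deposited values. Those values are CPM divided by a composition factor of the library, here called normalized CPM. Blood cell miRNAs were read in all libraries. Listed erythrocyte miRNAs took 7.86% to 23.9% of the reads in EXO1 and 57.6% to 67.7% in EXO2, and listed muscle miRNAs took 82.6%, 23.2% and 0.909% in EXO1 replicates 1, 2 and 3 and at most 1.51% in EXO2. Reads outside these lists numbered 561937, 1206306 and 2473480 in EXO1 and 1249109, 1707182 and 1176355 in EXO2. EXO1 replicate 1 was therefore the shallowest library for pancreatic miRNAs, and 0 reads there allow up to 1.90 normalized CPM (3 reads), against 0.538 to 0.798 in EXO2. PCR copies were not marked, so such limits and the Wilson intervals reflect counting error alone.

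The acinar cluster was read in EXO1 and was at 0 or at a single read in EXO2. rno-miR-217-5p, the most read of the 3, had 18.4, 75.9 and 135 normalized CPM in EXO1 replicates 1, 2 and 3, from 29, 351 and 613 reads. In EXO2 it had 0, 0.179 and 0, from 1 read in replicate 2. Every EXO2 library lay below every EXO1 library. The group means were 76.6 ± 58.5 in EXO1 and 0.0598 ± 0.104 in EXO2 (SD, n = 3 each), a ratio of 1279.8. Counting error of the single EXO2 read alone, taken as staying in replicate 2, gives this ratio a 95% range of 229.7 to 50550.4 (exact Poisson). In EXO2 replicates 1 and 3, 1 read is 0.221 and 0.266 normalized CPM, so reads there would lower these limits. Without EXO1 replicate 3 the ratio was 788, and without EXO2 replicate 2 no read is left in EXO2 to form one. With EXO2 at 3 reads per library, the limit used for the members at 0, the ratio was 115.

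rno-miR-216a-5p, the middle member of the cluster, had 0, 8.65 and 50.8 normalized CPM in EXO1 replicates 1, 2 and 3, from 0, 40 and 230 reads. rno-miR-216b-5p, the first member in genome order, had 0, 18.6 and 60.5, from 0, 86 and 274 reads. Both were at 0 in all 3 EXO2 libraries. The groups touched at 0 because EXO1 replicate 1 held no read of either. With 3 reads per library in place of 0 in EXO2, the EXO1 mean of miR-216a-5p (19.8 ± 27.2, SD, n = 3) was at least 29.7-fold higher and that of miR-216b-5p (26.4 ± 31.0, SD, n = 3) at least 39.5-fold higher. These bounds rest on EXO1 replicate 3 and are 6.49-fold and 13.9-fold without it, and 44.6-fold and 59.3-fold without EXO1 replicate 1. Less RNA per vesicle, fewer vesicles from acinar cells and other sources of the difference cannot be told apart in these samples, and none was tested.

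**Figure D1:**
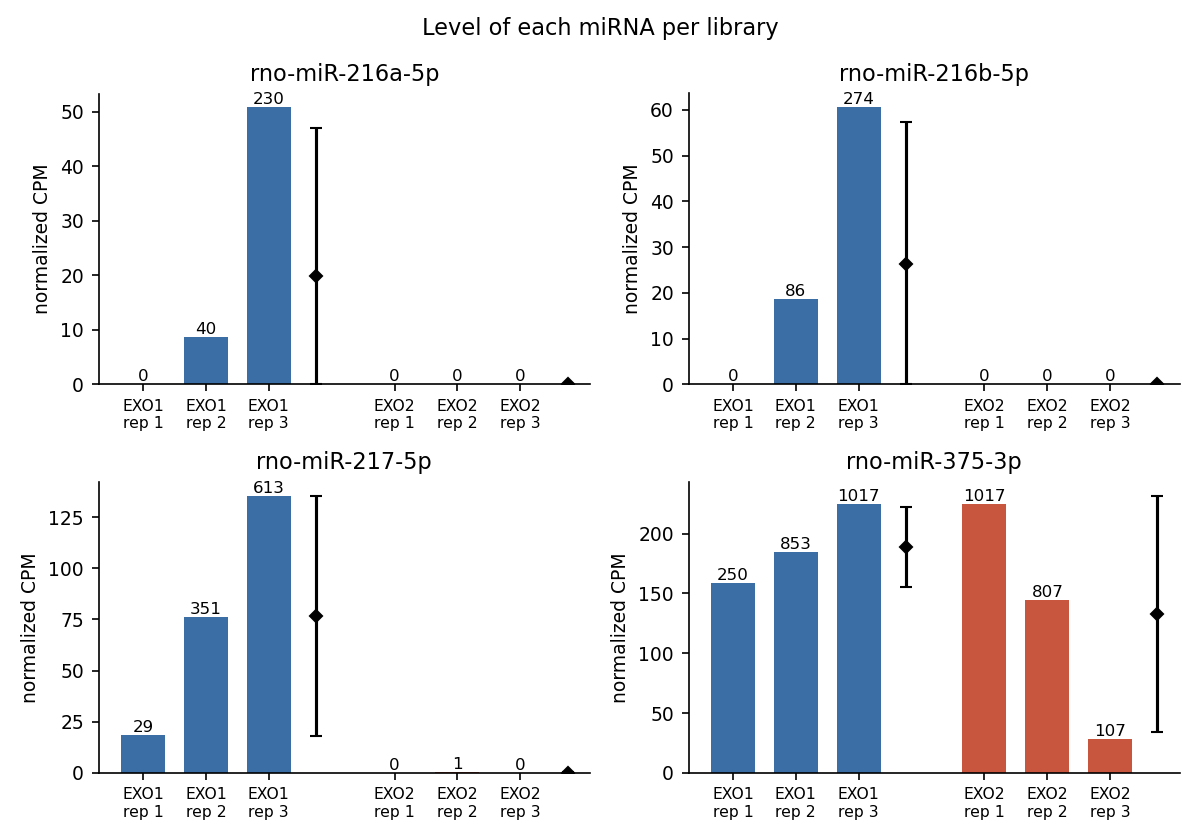
Normalized CPM (vertical axis, linear from 0) of the 4 miRNAs in each library, with EXO1 in blue and EXO2 in red. Numbers above the bars are reads, and diamonds with bars are group means with SD over 3 libraries, cut at 0. The cluster had 1 read in all of EXO2, whereas miR-375-3p reached 225 normalized CPM in both groups.

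In normalized CPM, all 3 cluster members were highest in EXO1 replicate 3 and lowest in replicate 1. In reads outside the erythrocyte and muscle lists, given further on, miR-217-5p was instead highest in replicate 2. Across the 6 libraries Pearson's r of log2(normalized CPM + 1) was 0.99 between miR-216a-5p and miR-216b-5p, 0.85 between miR-216a-5p and miR-217-5p and 0.87 between miR-216b-5p and miR-217-5p. Against miR-375-3p it was 0.41 to 0.48. These 6 points share their libraries and their common zeros, so the values are descriptive.

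In the comparison of EXO2 with EXO1, miR-217-5p had a log2 fold change of -5.80 (standard error 1.63, 95% interval -9.28 to -2.32), with an adjusted p = 0.297 from limma over 410 miRNAs. On this scale of log2(normalized CPM + 1), the change of a low miRNA is understated. Without the mean-variance trend, its adjusted p was 0.0290 in limma, with the same fold change. Over all alternatives its adjusted p ranged from 0.0290 to 0.552 in limma. miR-216b-5p had -3.41 (standard error 1.57) and miR-216a-5p had -2.99 (standard error 1.45), each with an adjusted p = 0.342 from limma (0.108 to 0.612 over the alternatives). For these 2 the fitted value depends on the pseudocount and is no bound. Both entered the test only through EXO1 replicates 2 and 3, so their direction was fixed by the filter of at least 2 libraries above 0. miR-217-5p, above 0 in 1 EXO2 library, also passed this filter through EXO1, so its adjusted p values are descriptive.

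The cluster was also expressed relative to reads outside the erythrocyte and muscle lists, a scaling chosen after seeing the data. Reads of 0 stay at 0 on any scale, so this is no second test of the low EXO2 values. In reads per 1000000 such reads (outside RPM), miR-217-5p stood at 51.6, 291 and 248 in the EXO1 libraries, against 0, 0.586 and 0 in the EXO2 libraries. The lowest EXO1 library had a 95% Wilson interval of 35.9 to 74.1, above the upper bounds of 3.08, 3.32 and 3.27 of the EXO2 libraries. miR-216a-5p had 0, 33.2 and 93.0 in EXO1 and miR-216b-5p had 0, 71.3 and 111, whereas 0 reads allow up to 2.40, 1.76 and 2.55 in EXO2. In EXO1 replicate 1, 0 reads allow up to 5.34 outside RPM. Pooled over libraries, the cluster had 1623 of 4241723 such reads in EXO1 and 1 of 4132646 in EXO2. The log2 fold change on this scale was -7.07 for miR-217-5p (adjusted p = 0.265 from limma).

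**Figure D2:**
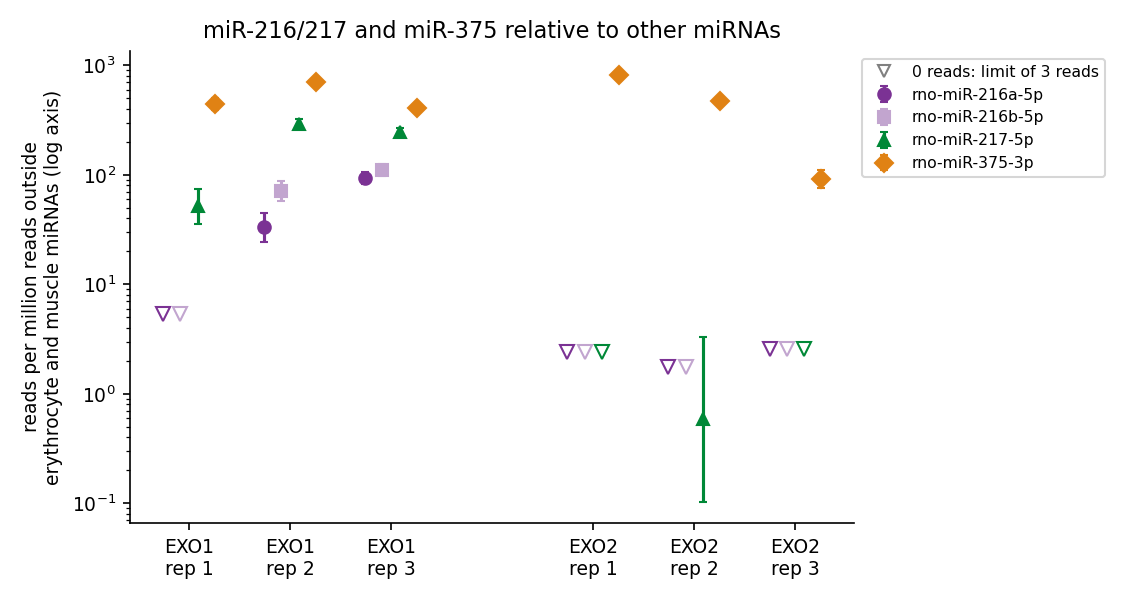
Level of each miRNA in reads per 1000000 reads outside the erythrocyte and muscle miRNAs (log axis) in each library, with 95% Wilson intervals. Open triangles mark libraries with 0 reads at their limit of 3 reads. All filled cluster points of EXO1 lie between 33.2 and 291, and the only one in EXO2 is at 0.586.

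The share of each member in the cluster was taken within each EXO1 library. miR-217-5p took 29 of 29 cluster reads in replicate 1 (95% Wilson interval from 88.3%), 73.6% of 477 in replicate 2 (69.5% to 77.3%) and 54.9% of 1117 in replicate 3 (51.9% to 57.8%). These intervals do not overlap, but they cover counting error of unmarked PCR copies alone, and the spread of such shares between replicate preparations is not known. miR-216a-5p took 8.39% in replicate 2 and 20.6% in replicate 3. Its absence from the 29 reads of replicate 1 allows up to 10.3% and is not distinguishable from the share of replicate 2. miR-216b-5p took 18.0% and 24.5% in replicates 2 and 3, both above that limit. Among miR-216a and miR-216b reads alone, miR-216a-5p took 31.7% (24.3% to 40.3%) and 45.6% (41.3% to 50.0%).

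miR-375-3p was read in every library, and its order among libraries depended on the scaling. It had 158, 185 and 225 normalized CPM in EXO1 replicates 1, 2 and 3, from 250, 853 and 1017 reads. In EXO2 it had 225, 145 and 28.5, from 1017, 807 and 107 reads. The groups overlapped, with EXO2 replicate 1 at the level of the highest EXO1 library and EXO2 replicate 3 below all others. As reads per 1000000 miRNA reads, without the composition factors, it had 42.6, 374 and 361 in EXO1 and 335, 161 and 28.7 in EXO2. On that scale EXO1 replicate 1, with its 82.6% of muscle reads, lay close to EXO2 replicate 3. The means were 189 ± 33.4 in EXO1 and 133 ± 98.9 in EXO2 (SD, n = 3 each). In limma this was -0.93 ± 0.81 (log2 fold change with standard error, adjusted p = 0.515). Its 95% interval, -2.65 to 0.80, includes changes in either direction, so equal levels are not shown. Without EXO2 replicate 3 the log2 fold change was -0.05. Outside the erythrocyte and muscle lists, miR-375-3p had 445, 707 and 411 outside RPM in EXO1 and 814, 473 and 91.0 in EXO2. By rank it was 105th to 124th in EXO1 and 111th, 129th and 197th in EXO2.

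The cluster and miR-375-3p were then compared within each library, where the scaling of the library cancels. In EXO1 the cluster took 10.4% (95% Wilson interval 7.34% to 14.5%), 35.9% (33.3% to 38.5%) and 52.3% (50.2% to 54.5%) of the reads of the cluster and miR-375 together. In EXO2 it took 0 of 1017, 1 of 808 and 0 of 107 reads. The zeros allow up to 0.295% and 2.80%, and the single read is 0.124%. Every EXO2 library was below every EXO1 library, also by these limits.

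Differences of log2(normalized CPM + 1) between members were tested for all 6 pairs, a measure in which scaling cancels apart from the pseudocount. miR-217-5p minus miR-375-3p was -3.04, -1.27 and -0.73 in EXO1, lower at -7.82, -6.95 and -4.88 in EXO2. The group means differed by -4.87 (p = 0.1 in a 2-sided exact permutation test, where 3 libraries a group can give no smaller p, adjusted p = 0.2 over 6 pairs). The difference was -4.24 to -5.71 when 1 library was left out. The size of the difference depended on the pseudocount and was -7.73 with 0.1 in place of 1, and -5.16 with library totals only. Since EXO2 held 1 read of miR-217-5p, its EXO2 values are close to the negative of the miR-375-3p level. The other 5 pairs include miR-216a-5p or miR-216b-5p, which had no read in EXO2, and nothing is read from them.

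**Figure D3:**
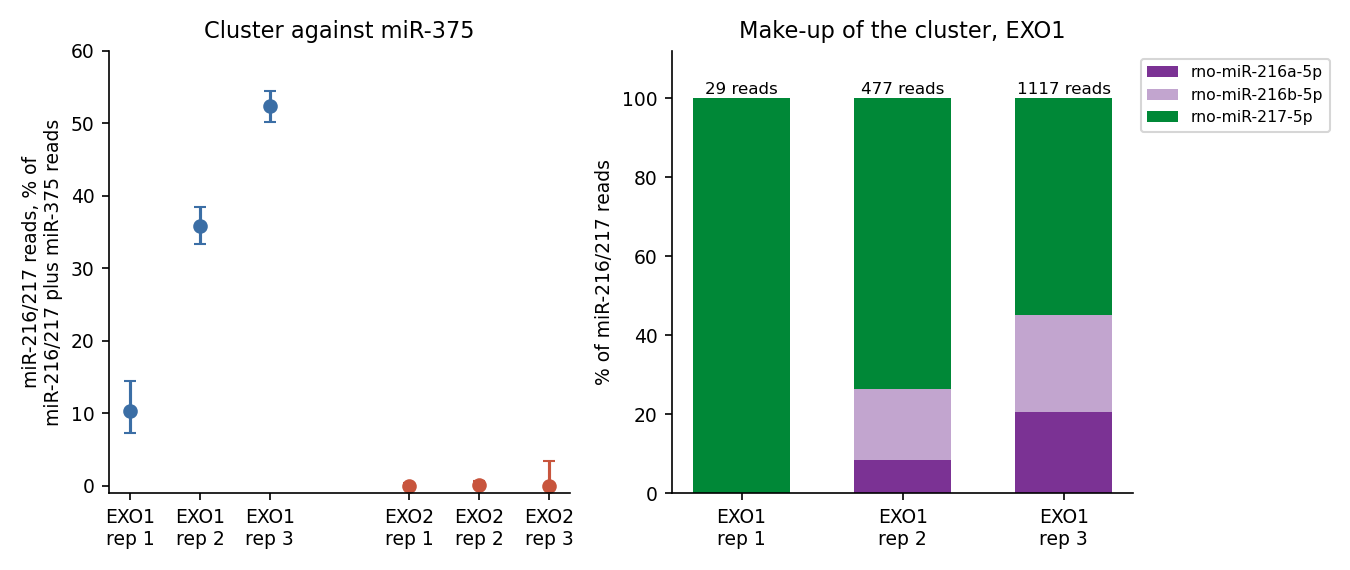
Left, cluster reads as a percentage of cluster plus miR-375 reads in each library, with 95% Wilson intervals. Right, the percentage of cluster reads that each member took in the EXO1 libraries, with the number of cluster reads above each bar. The cluster lay between 10.4% and 52.3% in EXO1 and at or below 0.124% in EXO2.

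Among all 410 miRNAs tested, the log2 fold change of miR-217-5p was the lowest, at -5.80. miR-493-5p was close to it at -5.65, against a standard error of 1.63 for miR-217-5p. The value of miR-217-5p rests on 1 read in EXO2 and depends on the pseudocount, with -8.67 at 0.1, so its rank is descriptive. miR-375-3p stood 160th from the lowest. No rank is given for miR-216a-5p and miR-216b-5p, whose place follows from the filter and the pseudocount. The median of all 410 was -0.56 and lay between -0.70 and -0.38 under the other scalings. An adjusted p of 0.05 in limma was passed by 0 of 410 (0%), and 54 had an unadjusted p under 0.05. The methods counted miRNAs with unadjusted p below 0.05 and more than 1.5-fold change, which held here for 24 higher and 30 lower miRNAs, and the lower calls are 7.32% of all tested. miR-217-5p and miR-216b-5p were among the lower calls. Nothing is read from either call, because both passed the filter through their EXO1 libraries. The lower calls numbered 72 without EXO1 replicate 1 and 46 without EXO1 replicate 3.

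Complete separation with EXO2 below was seen in 9.51% of the 410, and in 1 of the 4, miR-217-5p, which passed the filter through EXO1. All EXO2 libraries were at 0 for 11.0% of the 410, and for 2 of the 4, miR-216a-5p and miR-216b-5p. Of 152 miRNAs with an EXO1 mean at least that of miR-217-5p, it was the only 1 with at most 1 read in EXO2. Both limits are values of miR-217-5p itself, so nothing is read from this count. At the EXO1 level of miR-216a-5p the count was 9 of 234, and at that of miR-216b-5p it was 6 of 210. The 9 include the 3 cluster members by the choice of the limits, and also miR-381-3p, miR-193b-3p and miR-295-3p. Of 45 miRNAs at 0 in all EXO2 libraries, 17 were highest in EXO1 replicate 3 in normalized CPM, 23 in replicate 1 and 5 in replicate 2.

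**Figure D4:**
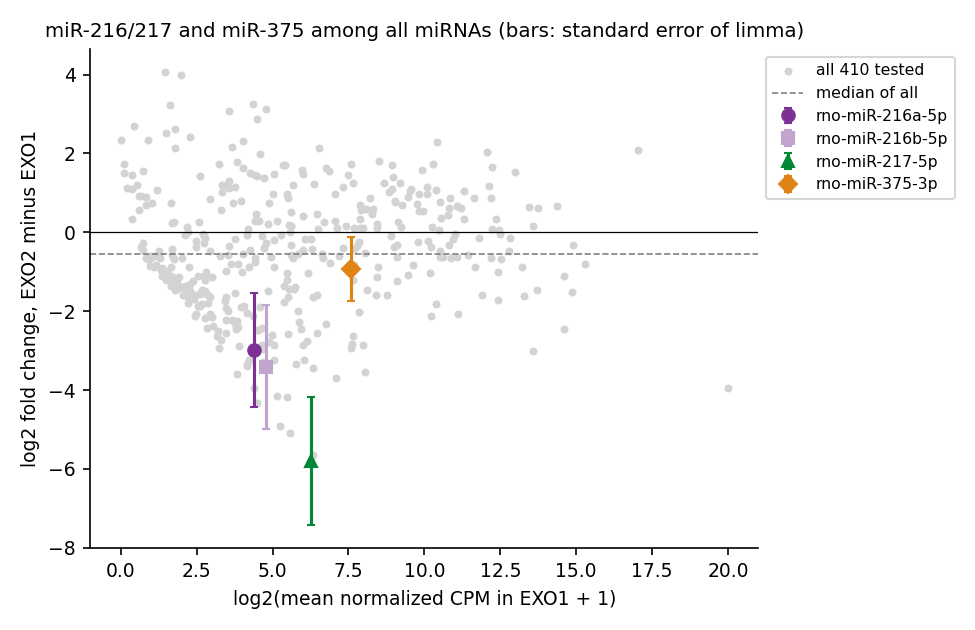
Log2 fold change of EXO2 against EXO1 for the 410 miRNAs tested (vertical axis) against log2 of the EXO1 mean plus 1 (horizontal axis). Colored points are the 4 pancreatic miRNAs with the standard error of limma, and the dashed line is the median, -0.56. miR-217-5p, at -5.80, is the lowest point, close to miR-493-5p at -5.65.

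The 5 miRNAs most like each of the 3 main members were found by Pearson's r of log2(normalized CPM + 1) over the 6 libraries, as a description. Those nearest to miR-216a-5p were miR-582-5p, miR-26b-3p, miR-137-3p, miR-3065-5p and miR-33-3p, each with r of at least 0.99. All 5 were at 0 in EXO1 replicate 1, highest in EXO1 replicate 3 at 3.98 to 17.0 normalized CPM, and at 0 in EXO2 except for 0.179 of miR-33-3p in replicate 2. Those nearest to miR-217-5p were miR-99b-5p, let-7f-2-3p, miR-193b-3p, miR-136-5p and miR-301a-3p, with r of 0.93 to 0.95. miR-99b-5p, a widely expressed miRNA, was far more abundant, at 482, 616 and 1029 normalized CPM in EXO1, against 300.0, 348 and 299.9 in EXO2. Those nearest to miR-375-3p were miR-455-3p, miR-493-3p, miR-145-3p, miR-214-3p and miR-378a-5p, with r of 0.83 to 0.91. All 5 were lowest in EXO2 replicate 3, at 0 to 3.19 normalized CPM, as miR-375-3p was.

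Other miRNAs of the islets, of epithelia and of digestive organs were set beside the cluster. None of the 16 tested in these 3 lists passed an adjusted p of 0.05 in limma. Of all 410 miRNAs, the log2 fold change was above 0 for 154 (37.6%) and below 0 for 256 (62.4%). The thresholds of the methods were met as higher by 24 (5.85%) and as lower by 30 (7.32%). The counts of each list are to be read against these shares. Of 5 islet miRNAs listed, 4 were tested, and of these 2 had positive and 2 negative log2 fold changes (median 0.83), and miR-184 alone met the thresholds of the methods as higher. miR-7a-5p, a regulator of beta cell growth that is also abundant in brain, had 2933, 12959.9 and 1412 normalized CPM in EXO1, against 2810.1, 3762 and 4652 in EXO2. Here limma gave -0.04 ± 0.69 (log2 fold change with standard error, adjusted p = 0.973). miR-184, found in islets and in surface epithelia, had 8383, 1871 and 2422 in EXO1 and 18062, 12287 and 12114 in EXO2, all EXO2 libraries above all of EXO1 (2.05 ± 0.61 on the same scale, adjusted p = 0.297 by limma). miR-7b had 1.71 and miR-7a-1-3p had -0.99.

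The epithelial list, whose miR-200 family maintains the epithelial state, had 5 positive and 2 negative log2 fold changes of 7 (median 0.69). Of these, miR-205 and miR-203a-3p met the thresholds of the methods as higher. miR-200a-3p, made by many glands, had 449, 827 and 547 normalized CPM in EXO1, against 1006, 1023 and 837 in EXO2. miR-200c-3p had 170.4, 1297 and 161 in EXO1 and 238, 328 and 122 in EXO2, overlapping like miR-375-3p. The other fold changes were 0.53 for miR-200b-3p, -1.04 for miR-141-3p and 2.32 for miR-429.

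Of 7 miRNAs of the digestive list, 5 were tested, and all 5 had negative log2 fold changes, from -2.58 to -0.32 (median -0.65, near the -0.56 of all miRNAs). miR-148a-3p, abundant in acinar cells and in liver, had 33776, 19259 and 37606 normalized CPM in EXO1, against 28529, 21670.4 and 20048 in EXO2. The groups overlapped, and limma gave -0.33 ± 0.60 (log2 fold change with standard error, adjusted p = 0.770). miR-122-5p of hepatocytes had 22072, 3095 and 48760 in EXO1 and 3526, 2071 and 2807 in EXO2. It alone of the 5 met the thresholds of the methods as lower, which 7.32% of all 410 did (-2.45 ± 0.80, adjusted p = 0.297 by limma). miR-192-5p and miR-194-5p, of liver and gut, had -0.65 and -0.32, and miR-148a-5p had -2.58. All 5 were highest in EXO1 replicate 3 in normalized CPM.

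No miRNA of the blood and muscle lists passed an adjusted p of 0.05 in limma either. Of 9 erythrocyte miRNAs, 9 had positive log2 fold changes (median 1.53), and 5 met the thresholds of the methods as higher. Of 7 muscle miRNAs, 6 had negative values (median -0.61, near the -0.56 of all miRNAs). The thresholds were met as lower by 2 of the 7, against 7.32% of all 410. Of 5 platelet and leukocyte miRNAs, all had positive values (median 0.71) and none met the thresholds. Their part in the values of the pancreatic miRNAs was not tested, apart from the outside RPM values given above.

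**Figure D5:**
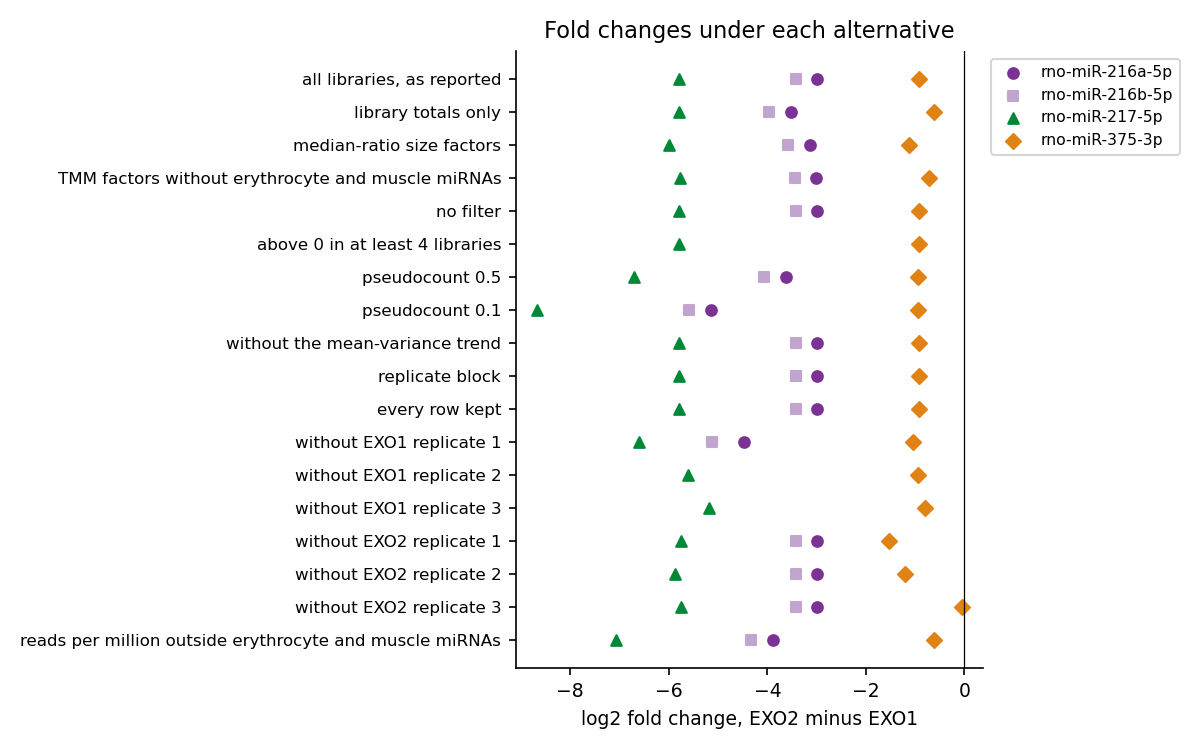
Log2 fold change of EXO2 against EXO1 (horizontal axis) for the 4 miRNAs under each alternative (vertical axis). A missing point means that the miRNA was not tested there. miR-217-5p stayed between -8.67 and -5.19, and miR-375-3p lay between -1.52 and -0.05.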

How the data were processed

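Per the labels, RNA from plasma exosomes was sequenced on an Illumina NextSeq sequencer. Adapters were trimmed, reads under 15 nucleotides dropped and miRNAs annotated by the authors with miRDeep2. Tools in the submitters' processing notes are cutadapt 1.14, edgeR 3.18.1 and Bowtie. Genome build and miRNA release: not given in the sources used here. Signal values were deposited by the authors per library and miRNA, CPM divided by a composition factor, which equalled a recomputed TMM factor (difference 0%). All values were whole multiples of 1 step per library (relative tolerance 1e-06), taken as 1 read, and reads, shares and limits of 3 reads were computed from it. No count test was run, since most libraries held too few low values to establish the step under the rule applied. Another pair of columns, headed CPM for each group, was not used.

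The 468 rows held 420 miRNAs, and each of 43 repeated IDs was represented by its row with the largest sum (none of the 4 pancreatic miRNAs). Those read in 2 or more libraries entered limma 3.58.1 (R 4.3.3) on log2(value + 1), with a mean-variance trend and no covariate, and Benjamini-Hochberg adjustment over all 410. Pairs of members were compared by exact permutation tests, and shares have 95% Wilson intervals. The limma fit was checked on simulated log2 values, drawn from a normal distribution without counts or zeros. The check therefore does not cover miRNAs at 0 or 1 read in EXO2, such as the cluster. Same-numbered libraries did not deviate together (correlations -0.04, 0.06 and -0.12). The alternatives were 4 scalings, 2 filters, pseudocounts of 0.5 and 0.1, no variance trend, every row kept, a replicate block, and each library left out in turn.

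The miRNAs and lists were chosen with earlier results of these data known. Those named were the 4 pancreatic miRNAs, the 5 most like each of 3 of them, and the islet, epithelial and digestive lists. Other miRNAs were named after their values were seen. Sequences were from RefSeq (GRCr8). Calculations ran in Python 3.11.15 (scipy 1.17.1, pandas 2.3.3, numpy 2.4.6).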

Additional observations from a re-analysis of the deposited data

How the results depend on the processing

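The log2 fold changes of miR-217-5p and miR-375-3p and their within-library difference kept their direction under every alternative that could be run. With 1 read of miR-217-5p in all of EXO2, no alternative run could turn its direction. The same holds for miR-216a-5p and miR-216b-5p, at 0 in all EXO2 libraries. For the 3 cluster members the direction is therefore no sign of stability. The within-library difference rests on the same single read. Without the mean-variance trend, miR-217-5p passed an adjusted p of 0.05 at -5.80, and 5 miRNAs passed in all, the others being miR-130b-5p, miR-136-5p, miR-193b-3p and miR-493-5p. Nothing is read from the call of miR-217-5p, which entered the test through EXO1. Leaving out 1 library gave -6.60 to -5.19 for miR-217-5p, -1.52 to -0.05 for miR-375-3p, -4.48 to -2.99 for miR-216a-5p and -5.12 to -3.41 for miR-216b-5p. miR-216a-5p and miR-216b-5p could not be tested without EXO1 replicate 2 or 3, or with the filter of at least 4 libraries above 0. A pseudocount of 0.1 gave -8.67 for miR-217-5p, -5.15 for miR-216a-5p and -5.60 for miR-216b-5p.

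The replicate numbers do not pair the libraries, and with them as a block 2 miRNAs passed an adjusted p of 0.05, miR-1b and miR-206-3p. The block changed no call of the 4 pancreatic miRNAs (adjusted p = 0.278 for miR-217-5p in limma). Leaving out 1 library gave 0 to 2 miRNAs past an adjusted p of 0.05 (2 without EXO1 replicate 1, miR-184 and miR-363-3p), 13 to 31 higher and 20 to 72 lower by the thresholds of the methods. The higher count of 24 was 8 (with 22 lower) by library totals only and 37 (with 26 lower) per reads outside the erythrocyte and muscle lists, a scaling chosen after seeing the data. It was 15 without EXO2 replicate 2 and 13 without EXO2 replicate 3, and the lower count of 30 was 72 without EXO1 replicate 1 and 46 without EXO1 replicate 3. The causes were not tested. The limit at 0 reads was highest in EXO1 replicate 1, at 5.34 outside RPM. It lay below the 33.2 of miR-216a-5p and the 71.3 of miR-216b-5p in EXO1 replicate 2. Why EXO1 replicate 1 held no read of either was not tested.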
